A study of Mus musculus with 2 samples.

Results

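The platelet-derived growth factor (PDGF) genes were followed across the cell types of the newborn mouse ovary. They were taken by gene symbol and comprise 4 ligand genes (Pdgfa, Pdgfb, Pdgfc and Pdgfd) and 2 receptor genes (Pdgfra and Pdgfrb), 6 of the 31057 genes in the count tables, and all 6 had UMIs in both libraries. Whole ovaries of CD1 mice, an outbred strain, at postnatal day 2 were dissociated and sequenced as single cells in 2 libraries (n = 2), with no treatment and no second genotype. Each library pooled the ovaries of several pups from a single pregnant female, and p-values measure the spread between these 2 libraries. Each captured transcript was counted once through its unique molecular identifier (UMI). The comparison asked which cell types held transcripts of the ligands, which held transcripts of the receptors, and how far both occurred in the same cells.

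PDGFs are secreted dimers that bind receptor tyrosine kinases on the cell surface and act mostly on mesenchymal cells. The ligands PDGF-A and PDGF-B are processed inside the cell, whereas PDGF-C and PDGF-D are secreted with a CUB domain that is cut off by extracellular proteases. PDGF receptor alpha binds the A, B and C chains and marks many fibroblast-like progenitors, and PDGF receptor beta binds mainly the B and D chains and marks pericytes and vascular smooth muscle. Endothelial PDGF-B that recruits PDGF receptor beta-positive pericytes is the best-known pairing in developing vessels.

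The deposited tables held 4094 and 4847 cells with 54471790 and 59074480 UMIs. After filtering, 3642 and 4371 cells were clustered, 16 of their barcodes occurred in both libraries, and 3602 and 4009 cells received a cell type from marker genes. Counts by type ranged from 33 immune-like cells in replicate 1 to 2499 interstitial-like cells in replicate 2. The libraries differed in their make-up, since granulosa-like cells were 45.7% of the clustered cells of replicate 1 and 14.1% of replicate 2. All markers of a type's own list had UMIs in that type, and the own list had the highest summed level of the 9 lists in each of the 7 types and both libraries. The clusters were named from these same lists, so this describes the types and does not test their names. Levels are given as UMIs per 1000000 UMIs of a type (CPM). The lowest such sum was 1486 CPM for the mesothelial list in replicate 2 and the highest was 13634 CPM for the immune list in replicate 2. Depth per cell differed, with median UMIs of 79489 and 61729 in germ-like cells against 4354 and 4275 in perivascular-like cells. Shares of cells with a UMI are therefore also given after each cell was thinned to 2000 UMIs.

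In the GRCm38 annotation, matched by Ensembl identifier, Pdgfa (ENSMUSG00000025856) lies on chromosome 5 from 138976014 to 138997370 on the minus strand. Pdgfra (ENSMUSG00000029231) lies on the same chromosome, from 75152292 to 75198215 on the plus strand. Pdgfb (ENSMUSG00000000489) spans 79995874 to 80014977 of chromosome 15, Pdgfc (ENSMUSG00000028019) 81036416 to 81214040 of chromosome 3, and Pdgfd (ENSMUSG00000032006) 6168584 to 6378850 of chromosome 9. Pdgfa, Pdgfb, Pdgfc and Pdgfra each overlap an annotated antisense transcript and Pdgfd overlaps the opposite-strand gene Ddi1. These partners all lie on the strand opposite to their PDGF gene. The strand setting of the counting is not given in the sources used here. A part of such partners in the UMIs of the PDGF genes was not tested.

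Pdgfa and Pdgfc were both enriched in granulosa-like cells, and Pdgfra and Pdgfd both in interstitial-like cells, as given further on, and the promoters of these pairs are shown to set them side by side. The sequences are the 250 bases before the RefSeq start of each gene (GRCm38.p6), written 5′ to 3′ on the strand of the gene. They are Pdgfa at chr5:138994282-138994531 on the minus strand, Pdgfc at chr3:81036166-81036415, Pdgfd at chr9:6168236-6168485 and Pdgfra at chr5:75152001-75152250 on the plus strand. The Pdgfa window is 1 of 2 listed for this gene and lies within its annotated span. Capitals mark matches to the letters searched.
Pdgfa: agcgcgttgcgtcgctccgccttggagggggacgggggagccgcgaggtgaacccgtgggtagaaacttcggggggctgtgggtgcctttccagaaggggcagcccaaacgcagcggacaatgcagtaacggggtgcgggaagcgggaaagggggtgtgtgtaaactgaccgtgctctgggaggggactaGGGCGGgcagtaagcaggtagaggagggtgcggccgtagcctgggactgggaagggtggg
Pdgfc: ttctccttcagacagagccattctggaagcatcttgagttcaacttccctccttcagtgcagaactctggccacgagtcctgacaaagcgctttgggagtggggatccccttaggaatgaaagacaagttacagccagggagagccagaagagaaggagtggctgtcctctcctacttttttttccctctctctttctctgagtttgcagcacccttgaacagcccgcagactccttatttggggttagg
Pdgfd: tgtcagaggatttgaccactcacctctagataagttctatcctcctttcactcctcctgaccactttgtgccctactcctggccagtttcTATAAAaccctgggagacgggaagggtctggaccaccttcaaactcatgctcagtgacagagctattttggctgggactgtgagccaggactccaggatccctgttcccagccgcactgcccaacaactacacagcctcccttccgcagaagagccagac
Pdgfra: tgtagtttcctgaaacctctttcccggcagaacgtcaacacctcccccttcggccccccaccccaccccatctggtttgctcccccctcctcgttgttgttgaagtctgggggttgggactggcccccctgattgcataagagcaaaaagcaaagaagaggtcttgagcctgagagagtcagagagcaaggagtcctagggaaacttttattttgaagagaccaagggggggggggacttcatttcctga
The letters searched on both strands were the GC box GGGCGG, the TATA box TATAAA, the CCAAT box CCAAT and the forkhead letters TGTTTAC, which do not overlap one another. Pdgfa held 1 GC box, as did 32.7% of 32851 listed promoters of the same length, and its window had a GC content of 66.4%. Pdgfd held 1 TATA box, as did 12.4% of promoters, and had a GC content of 53.6%. Neither Pdgfc (50.8% GC) nor Pdgfra (54.4% GC) held any of these letters in this window, and the CCAAT and forkhead letters, found in 33.8% and 3.17% of promoters, were in none of the 4. The windows shown for each pair thus shared no match.

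The summed UMIs of a type were set against those of the remaining named cells of both libraries with edgeR's quasi-likelihood test. A gene was called enriched or depleted when it differed over 2-fold with a Benjamini-Hochberg adjusted p under 0.05 over all genes tested in that type. The 6 genes gave 42 combinations of gene and cell type, of which 8 were enriched (19.0%) and 14 depleted (33.3%), against 14.1% enriched and 19.6% depleted over all 109471 combinations tested. The median log2 fold change over the 42 combinations was -0.55. Each of the 6 genes was enriched in at least 1 type, but the share of all genes enriched in at least 1 type was not counted. The enriched combinations were Pdgfa and Pdgfc in granulosa-like cells, Pdgfb in endothelial-like cells, Pdgfc in mesothelial-like cells, Pdgfd, Pdgfra and Pdgfrb in interstitial-like cells and Pdgfrb in perivascular-like cells. Germ-like cells had 4 of the 6 genes depleted (Pdgfc, Pdgfd, Pdgfra and Pdgfrb), against 32.0% of all genes tested there. Depleted genes numbered 2 each in the granulosa-like (24.7% of all genes tested), interstitial-like (27.2%), endothelial-like (14.9%) and immune-like type (11.7%), and 1 each in the mesothelial-like (20.1%) and perivascular-like type (5.72%). No PDGF gene was enriched in germ-like or immune-like cells, where 28.7% and 10.2% of all genes tested were enriched, and the count in these 2 types was likewise 0 at an unadjusted edgeR p under 0.05 and by DESeq2. Pdgfb in germ-like cells was called enriched with the library as a block and with the other types weighted equally, and Pdgfb passed 2-fold in germ-like cells without replicate 1 and in immune-like cells without replicate 2. With the other types weighted equally, 8 combinations were enriched beside the 8 above. These were Pdgfa in mesothelial-like (log2 fold change 1.22) and perivascular-like cells (1.04), Pdgfb in germ-like cells (1.04), Pdgfc in interstitial-like cells (3.58), Pdgfd in granulosa-like (2.93), mesothelial-like (2.98) and endothelial-like cells (3.34), and Pdgfra in mesothelial-like cells, which went from -0.59 to 1.82. In that reference the 2 types without Pdgfc and Pdgfd UMIs count as much as each of the others. In the main reference, by contrast, each type counts by its summed UMIs. These were 16422755 and 26373935 in germ-like cells and 245031 and 241420 in perivascular-like cells.

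**Figure D1:**
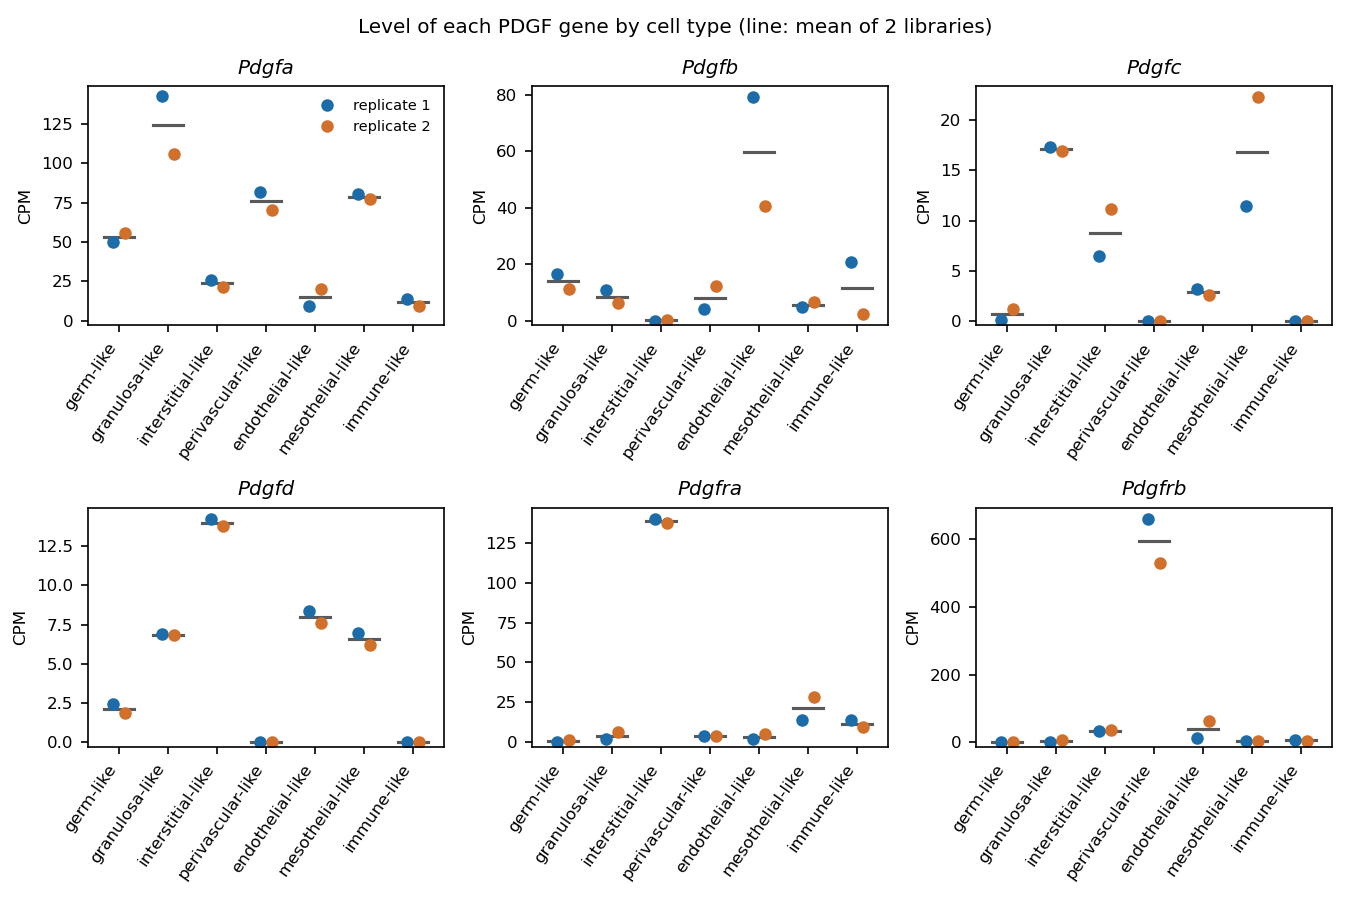
Level of each PDGF gene (y axis, CPM) in the 7 cell types (x axis), with 1 point per library and a line at their mean. Pdgfra stood at 140 and 137 in interstitial-like cells and Pdgfrb at 661 and 530 in perivascular-like cells, above their levels in every other type.

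**Figure D2:**
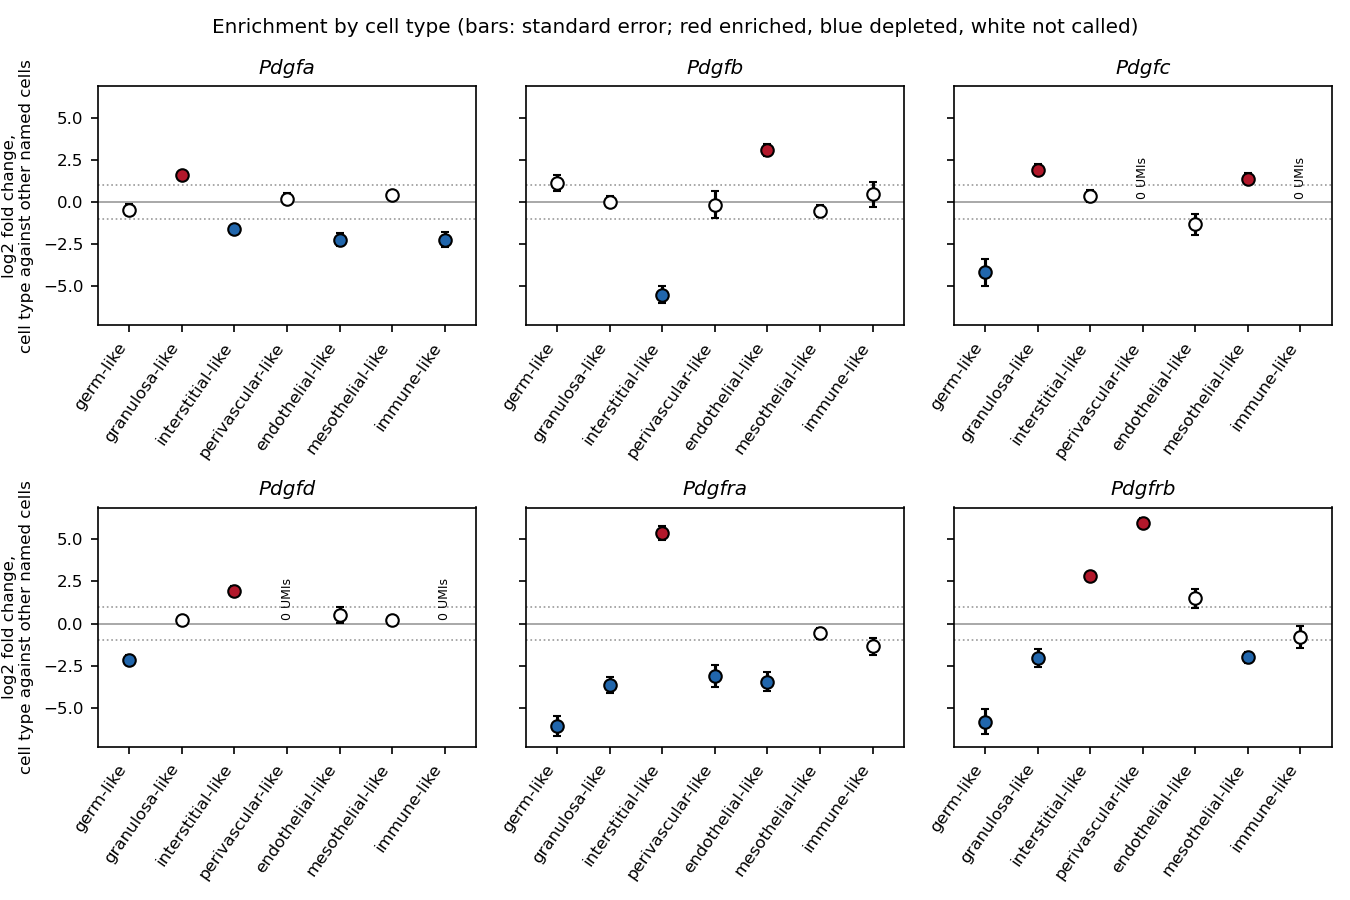
Log2 fold change of each PDGF gene in a cell type against all other named cells (y axis) for the 7 cell types (x axis), with bars for the standard error and dotted lines at 2-fold. Red points are enriched, blue points depleted and white points not called, and types with 0 UMIs of the gene carry no point.

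Pdgfa, which encodes the A chain, was highest in granulosa-like cells, the somatic cells that surround the oocyte. Its level was 142 CPM in replicate 1 and 106 CPM in replicate 2 (124 ± 25.8, SD, n = 2). It was 80.8 and 77.0 CPM in mesothelial-like cells, which cover the ovary, and 81.6 and 70.4 CPM in perivascular-like cells. In both libraries granulosa-like cells stood above these types, which overlapped each other. Germ-like cells, the oocytes, had 50.2 and 55.7 CPM. Lower levels were found in interstitial-like cells (25.9 and 21.6 CPM), endothelial-like cells (9.38 and 20.3 CPM) and immune-like cells (13.9 and 9.52 CPM). Pdgfa was enriched in granulosa-like cells with a log2 fold change of 1.61 (SE 0.17, edgeR adjusted p = 7.36e-04), where 2 of the 6 members and 16.8% of all genes tested were enriched. It was depleted in interstitial-like cells by a log2 fold change of -1.57 (adjusted p = 8.56e-04), in endothelial-like cells by -2.22 (adjusted p = 0.00277) and in immune-like cells by -2.25 (adjusted p = 0.00424), the endothelial-like value resting on 17 UMIs and ranging from -2.88 to -1.31 with 1 library left out. With the other types weighted equally the interstitial-like value was -0.86, and with cells thinned to 2000 UMIs neither the endothelial-like nor the immune-like call passed.

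Between pairs of types, tested in 1 edgeR fit over the 14 sums, Pdgfa was higher in granulosa-like than in germ-like cells by 1.23 on the log2 scale (SE 0.19, adjusted p = 5.07e-05). It was also higher in germ-like than in interstitial-like cells, by 1.11 (SE 0.19, adjusted p = 1.40e-04). Granulosa-like and mesothelial-like cells differed by 0.55 (SE 0.19, adjusted p = 0.0573, and 0.0425 with the library as a block). Mesothelial-like and perivascular-like cells did not differ beyond the spread of the fit (adjusted p = 0.80). That spread is estimated over all types together, without a library term. All 14 sums come from the same 2 libraries, so the types add no further animals. Over all 126 such pairs of the 6 genes 64 differed (50.8%), against 32.2% of the pairs of all genes.

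The share of cells with a Pdgfa UMI was 83.4% and 77.6% in germ-like cells and 69.3% and 57.1% in granulosa-like cells, an order that goes against the CPM and with the far deeper germ-like cells. At 2000 UMIs per cell it was 9.48% (exact 95% interval 5.89 to 14.3) and 11.4% (8.63 to 14.8) in germ-like cells and 23.5% (21.5 to 25.6) and 15.5% (12.7 to 18.6) in granulosa-like cells. In immune-like cells, which together with endothelial-like cells had the lowest levels, it was 0 of 27 cells, which allows a share of up to 11.1%, and 1.75%. These intervals cover counting error only.

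Pdgfb, which encodes the B chain, was highest in endothelial-like cells, the lining of blood vessels. The level there was 79.2 CPM in replicate 1 and 40.7 CPM in replicate 2 (60.0 ± 27.3, SD, n = 2), and both libraries stood above every other type. Germ-like cells had 16.6 and 11.3 CPM, granulosa-like cells 10.8 and 6.42 CPM, perivascular-like cells 4.08 and 12.4 CPM and mesothelial-like cells 4.75 and 6.62 CPM. In immune-like cells the libraries held 20.9 and 2.38 CPM, from 7 UMIs in all. The lowest type was interstitial-like, with 0.10 and 0.32 CPM from 6 UMIs among 3896 cells. Pdgfb was enriched in endothelial-like cells with a log2 fold change of 3.08 (SE 0.35, edgeR adjusted p = 2.39e-04), where 9.63% of all genes tested were enriched and no other member was. It was depleted in interstitial-like cells by -5.50 (SE 0.50, adjusted p = 8.63e-05), with -6.84 and -4.74 when 1 library was left out. In germ-like cells the log2 fold change was 1.15 (SE 0.47, adjusted p = 0.0747), and with the library as a block it was 1.28 (adjusted p = 0.0308).

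In the order of levels, endothelial-like cells exceeded germ-like cells by 2.31 on the log2 scale (SE 0.41, edgeR adjusted p = 3.35e-04). Germ-like, immune-like, granulosa-like, perivascular-like and mesothelial-like cells then followed without a difference between neighbours (adjusted p from 0.76 to 0.98). Mesothelial-like cells exceeded interstitial-like cells by 4.63 (SE 0.69, adjusted p = 1.87e-04). A Pdgfb UMI was found in 58.3% and 30.3% of endothelial-like cells at median depths of 13607 and 6205 UMIs, and in 0.07% and 0.20% of interstitial-like cells at 6515 and 5005 UMIs. At 2000 UMIs it was found in 6 of 60 (3.76% to 20.5%) and 6 of 33 (6.98% to 35.5%) endothelial-like cells.

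Pdgfc, which encodes the C chain, was found in granulosa-like cells at 17.3 and 16.9 CPM (17.1 ± 0.27, SD, n = 2). Mesothelial-like cells had 11.4 and 22.3 CPM, a spread that spanned both granulosa-like values. Interstitial-like cells had 6.44 and 11.1 CPM and endothelial-like cells 3.13 and 2.54 CPM. Germ-like cells had 0.12 and 1.18 CPM, from 33 UMIs among 42796690, of which 31 were from replicate 2. The summed granulosa markers in germ-like cells were 17.8 and 102 CPM and the interstitial markers 31.5 and 84.1 CPM. The part of such UMIs in the germ-like levels of Pdgfc, Pdgfra and Pdgfrb was not tested. Perivascular-like and immune-like cells had no Pdgfc UMI in either library, which at 3 counts over both libraries allows up to 6.17 and 4.24 CPM. These limits make Pdgfc at least 1.36-fold and 1.98-fold lower there than in the other named cells. Pdgfc was enriched in granulosa-like cells with a log2 fold change of 1.91 (SE 0.32, edgeR adjusted p = 0.00368), which was 1.52 without replicate 1 and 2.53 without replicate 2. It was also enriched in mesothelial-like cells with 1.39 (SE 0.34, adjusted p = 0.0152), the only member called there, where 10.8% of all genes tested were enriched. The mesothelial-like value was 0.68 without replicate 2, and the call was lost when a 2-fold change itself was tested. Pdgfc was depleted in germ-like cells by -4.17 (adjusted p = 0.00668), with -6.71 and -3.49 when 1 library was left out and -0.64 with no call when the other types were weighted equally. The immune-like zero was also called depleted (adjusted p = 0.0456), a call lost in 8 of the alternatives run, the library block among them.

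Granulosa-like and mesothelial-like cells did not differ in Pdgfc beyond the spread of the fit over all types, by -0.11 on the log2 scale (SE 0.48, edgeR adjusted p = 0.93). Granulosa-like and interstitial-like cells differed by 0.89 (SE 0.47, adjusted p = 0.15), and with the library as a block by 1.01 (SE 0.36, adjusted p = 0.0374). Interstitial-like cells exceeded germ-like cells, with -3.62 for germ-like minus interstitial-like (SE 0.58, adjusted p = 1.31e-04).

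Pdgfd, which encodes the D chain, was highest in interstitial-like cells, the fibroblast-like stroma between the follicles, at 14.2 and 13.8 CPM (14.0 ± 0.35, SD, n = 2). Endothelial-like cells had 8.34 and 7.63 CPM from 11 UMIs, granulosa-like cells 6.87 and 6.82 CPM and mesothelial-like cells 6.97 and 6.18 CPM. Germ-like cells had 2.44 and 1.86 CPM. No Pdgfd UMI was found in perivascular-like or immune-like cells, which allows up to 6.17 and 4.24 CPM, or at least 1.07-fold and 1.56-fold less than in the other named cells. Pdgfd was enriched in interstitial-like cells with a log2 fold change of 1.95 (SE 0.28, edgeR adjusted p = 7.88e-04), where 17.2% of all genes tested and 3 of the 6 members were enriched. It was depleted in germ-like cells by -2.16 (SE 0.27, adjusted p = 0.00200), where 32.0% of all genes tested and 4 of the 6 members were depleted, but the germ-like value turned to 0.97 with no call when the other types were weighted equally.

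Interstitial-like cells exceeded granulosa-like cells in Pdgfd, with -1.08 for granulosa-like minus interstitial-like (SE 0.25, edgeR adjusted p = 0.00506), and mesothelial-like cells by 1.04 (SE 0.28, adjusted p = 0.0138). They were not told apart from endothelial-like cells (0.73, SE 0.39, adjusted p = 0.22).

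Pdgfra, the receptor for the A, B and C chains, was highest in interstitial-like cells, at 140 and 137 CPM in the 2 libraries (139 ± 1.90, SD, n = 2). The next type was mesothelial-like with 14.3 and 28.3 CPM. Immune-like cells had 13.9 and 9.52 CPM from 8 UMIs, with a log2 fold change of -1.36 (edgeR adjusted p = 0.0695, and 0.0378 with the library as a block). Granulosa-like cells had 1.82 and 6.16 CPM, endothelial-like cells 2.08 and 5.09 CPM, perivascular-like cells 4.08 and 4.14 CPM from 2 UMIs, and germ-like cells 0.43 and 1.25 CPM. Interstitial-like cells held 93.8% and 91.0% of all Pdgfra UMIs in named cells. The log2 fold change against the other cells was 5.36 (SE 0.41, edgeR adjusted p = 3.99e-05), with 4.89 without replicate 1 and 6.20 without replicate 2. Against mesothelial-like cells alone the difference was 2.62 (SE 0.41, adjusted p = 2.58e-04), and mesothelial-like cells in turn exceeded granulosa-like cells, with -2.73 for granulosa-like minus mesothelial-like (SE 0.48, adjusted p = 0.00116).

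Pdgfra was depleted in germ-like cells by -6.07 (edgeR adjusted p = 0.00113), in granulosa-like cells by -3.67 (adjusted p = 0.00136), in endothelial-like cells by -3.45 (adjusted p = 0.00146) and in perivascular-like cells by -3.13 (adjusted p = 0.0271). With the other types weighted equally, the calls in granulosa-like, endothelial-like and perivascular-like cells were lost, at -1.37, -1.51 and -1.09. The granulosa-like value was -4.52 or -2.86 with 1 library left out, and the summed interstitial markers in granulosa-like cells were 206 and 263 CPM against 11949 and 11344 CPM in interstitial-like cells. In mesothelial-like cells these markers summed to 877 and 1020 CPM. The part of such UMIs in the Pdgfra level of granulosa-like and mesothelial-like cells was not tested. Of the 47 granulosa-like Pdgfra UMIs of replicate 2, 28 lay in the cluster led by Ly6d and Gng13 (13.3 CPM). In replicate 1 that cluster held 3 of 36 (3.37 CPM). It had 6 of 8 granulosa and 4 of 6 mesothelial markers detected, and its part was not tested either. A Pdgfra UMI was found in 56.3% and 49.1% of interstitial-like cells and, at 2000 UMIs per cell, in 24.4% (22.2 to 26.7) and 21.2% (19.6 to 22.9). In germ-like cells the share was 3.32% and 6.44% over all UMIs, and at 2000 UMIs 0 of 211 and 0 of 446 cells, which allows up to 1.42% and 0.673% at that depth.

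Pdgfrb, the receptor for the B and D chains, was highest in perivascular-like cells, the cells that wrap small vessels, at 661 and 530 CPM (596 ± 92.6, SD, n = 2). Interstitial-like cells had 32.6 and 35.5 CPM. Endothelial-like cells had 12.5 and 63.6 CPM, so that the libraries lay on both sides of the interstitial-like values. Immune-like cells had 6.95 and 4.76 CPM, granulosa-like cells 1.62 and 6.42 CPM, mesothelial-like cells 2.53 and 3.09 CPM and germ-like cells 0.06 and 0.57 CPM. Pdgfrb was enriched in perivascular-like cells with a log2 fold change of 5.95 (SE 0.30, edgeR adjusted p = 7.01e-05), where 4.7% of all genes tested were enriched and no other member was. The gene (ENSMUSG00000024620, chromosome 18, 61045150 to 61085061, plus strand) overlaps no other annotated gene. The log2 fold change was 5.46 without replicate 1 and 6.53 without replicate 2. It was also enriched in interstitial-like cells with 2.81 (SE 0.22, adjusted p = 4.43e-05), which fell to 0.98 (adjusted p = 0.0133) and under the 2-fold threshold when every cell was thinned to 2000 UMIs. Perivascular-like cells exceeded interstitial-like cells, with -4.08 for interstitial-like minus perivascular-like (SE 0.51, adjusted p = 2.32e-04).

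Pdgfrb was depleted in germ-like cells by -5.83 (edgeR adjusted p = 0.00197), with -7.95 and -5.47 when 1 library was left out, in mesothelial-like cells by -2.01 (adjusted p = 0.00313) and in granulosa-like cells by -2.04 (adjusted p = 0.0197), with -3.16 and -1.15 when 1 library was left out. The Pdgfrb share of perivascular-like cells was 90.2% and 84.3%, and at 2000 UMIs 76.5% (62.5 to 87.2) and 62.5% (47.4 to 76.0). In interstitial-like cells it was 20.0% and 18.6%, and at 2000 UMIs 6.33% (5.11 to 7.74) and 6.70% (5.74 to 7.76), against 0 of 211 germ-like cells (up to 1.42%) in replicate 1 and 0.22% in replicate 2, where all UMIs gave 0.47% and 2.89%.

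The endothelial-like level of Pdgfrb rested on few cells. Its log2 fold change there was 1.51 (SE 0.56, edgeR adjusted p = 0.0717), and with the library as a block 1.47 (adjusted p = 7.77e-04). All 37 UMIs lay in 8 cells, 2 in replicate 1 and 6 in replicate 2, and each of these cells also held UMIs of the pericyte marker Rgs5. The 57 and 26 endothelial-like cells without an Rgs5 UMI held no Pdgfrb UMI, which allows up to 3.49 and 11.3 CPM, whereas Pdgfb stayed at 76.7 and 37.6 CPM in them. The cells without an Rgs5 UMI were shallower, with median UMIs of 12952 and 4470 against 29586 and 16733 in those with one, and the part of depth was not tested. The summed perivascular markers in endothelial-like cells were 263 and 620 CPM and the interstitial markers 44.8 and 409 CPM, higher in replicate 2 as was Pdgfrb. In perivascular-like cells the order was the opposite, with 290 Pdgfrb UMIs and 4 Pdgfb UMIs.

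The 2 receptors overlapped in the interstitial-like cells. In replicate 1, 159 of 1397 cells held UMIs of both, 628 of Pdgfra alone and 121 of Pdgfrb alone. In replicate 2, 238 of 2499 cells held both, 990 Pdgfra alone and 227 Pdgfrb alone. Pdgfrb was thus found in 20.2% (exact 95% interval 17.5 to 23.2) of the cells with a Pdgfra UMI and in 19.8% (16.7 to 23.2) of those without in replicate 1, and in 19.4% (17.2 to 21.7) and 17.9% (15.8 to 20.1) in replicate 2. At 2000 UMIs per cell these shares were 5.90% and 6.47% in replicate 1 and 7.47% and 6.49% in replicate 2. In both libraries and at both depths the interval of cells with Pdgfra overlapped that of cells without. In perivascular-like cells, by contrast, 46 and 42 cells held Pdgfrb alone, 0 and 1 held both and 1 and 0 held Pdgfra alone.

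Ligand and receptor transcripts were also found in the same cells. Pdgfd, a ligand of the beta receptor, was found in 8.93% and 7.31% of the interstitial-like cells with Pdgfrb, against 9.40% and 8.31% of those without. In mesothelial-like cells with a Pdgfra UMI, 22 of 29 in replicate 1 and 54 of 78 in replicate 2 also held Pdgfa, a ligand of the alpha receptor (75.9% and 69.2%), against 61.2% and 53.7% of the mesothelial-like cells without Pdgfra. At 2000 UMIs per cell only 1 and 3 mesothelial-like cells held both, too few to order these shares. The summed interstitial markers in mesothelial-like cells were 877 and 1020 CPM, and the part of such UMIs in this overlap was not tested. Of the 46 and 43 perivascular-like cells with Pdgfrb, 1 and 2 held Pdgfb, a ligand of that receptor. Both ligands Pdgfa and Pdgfb were found in 123 of 211 and 166 of 450 germ-like cells over all UMIs. The median depths there were 79489 and 61729 UMIs, and the part of depth in this overlap was not tested.

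Set by total UMIs rather than by level, the sources of the ligands differed between the libraries, as did the number of cells of each type. Of the Pdgfa UMIs in cells with a type, granulosa-like cells held 67.2% in replicate 1 and 26.9% in replicate 2, and germ-like cells 19.6% and 49.0%. For Pdgfb, germ-like cells held 46.7% and 74.1%, while endothelial-like cells, the type of highest level, held 13.0% and 4.0%. Pdgfc UMIs came to 76.2% and 29.5% from granulosa-like cells and to 14.7% and 40.2% from interstitial-like cells, and Pdgfd UMIs to 41.5% and 62.3% from interstitial-like cells. For Pdgfrb, interstitial-like cells held 60.6% and 70.7% and perivascular-like cells 29.4% and 16.1%.

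**Figure D3:**
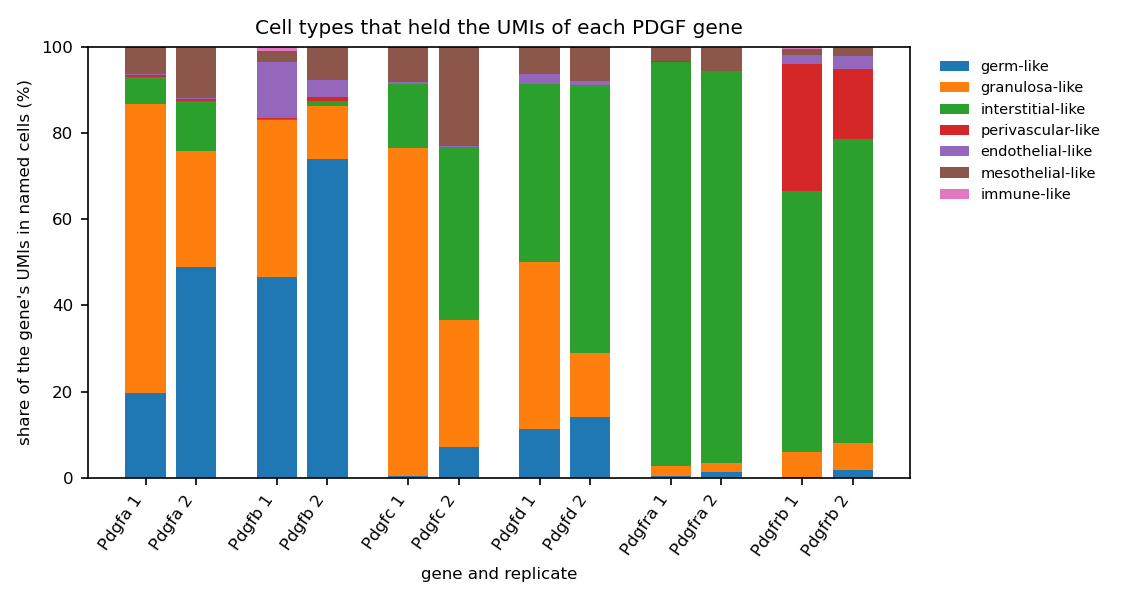
Share of each PDGF gene's UMIs in named cells (y axis, percent) that lay in each of the 7 cell types (colours), for both libraries of each gene (x axis). Pdgfra lay in interstitial-like cells in both libraries (93.8% and 91.0%), whereas the granulosa-like share of Pdgfa was 67.2% and 26.9%.

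Within types, levels differed between clusters, given here as a description without a test. Of the 7 interstitial-like clusters described, the cluster led by Pdlim3, Olfml3 and Plac8 had the highest Pdgfra level, 224 and 206 CPM, and the lowest Pdgfrb level, 16.3 and 12.01 CPM. The cluster led by Ogn and Clec3b had 126 and 141 CPM of Pdgfra and 38.1 and 51.8 CPM of Pdgfrb. Both clusters led by cell cycle genes (Pclaf and Top2a, and Pimreg and Cenpa) had Pdgfra at 128 to 182 CPM and Pdgfrb between 20.9 and 29.8 CPM in each library. Pdgfa within the stroma was highest in the cluster led by the contractile genes Tagln and Acta2, at 43.7 and 52.8 CPM, and in the Pdlim3 cluster, at 41.7 and 38.4 CPM, against 14.6 to 27.9 CPM in the other 5. Each of the 7 clusters held both receptors.

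Of the 5 granulosa-like clusters, the clusters led by Amh and Inhbb and by Hsd3b1 and Amh had more Pdgfb than the others. Amh encodes anti-Müllerian hormone, a product of growing follicles. Pdgfb was at 16.6 and 23.9 CPM in the first and 14.8 and 14.6 CPM in the second, against 2.37 to 9.11 CPM in the other 3. Pdgfc was at 8.30 and 4.78 CPM in the first and 11.9 and 5.67 CPM in the second against 27.3 and 22.7 CPM in the cluster led by Colec11 and Wfdc10. The cluster led by Ly6d and Gng13 had 6.74 and 17.5 CPM of Pdgfc, in replicate 1 less than both Amh clusters. The cluster led by Cxcl10 had 19.8 and 21.8 CPM. Pdgfa was present in all 5, from 78.0 to 169 CPM. The highest Pdgfa level, 169 and 147 CPM, was in the cluster led by the inflammatory gene Cxcl10, with 664 cells in replicate 1 and 92 in replicate 2. The part of that cluster in the difference between libraries was not tested. The 2 germ-like clusters were almost each from 1 library (200 of 211 and 439 of 450 cells) and had 51.2 and 56.0 CPM of Pdgfa there.

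**Figure D4:**
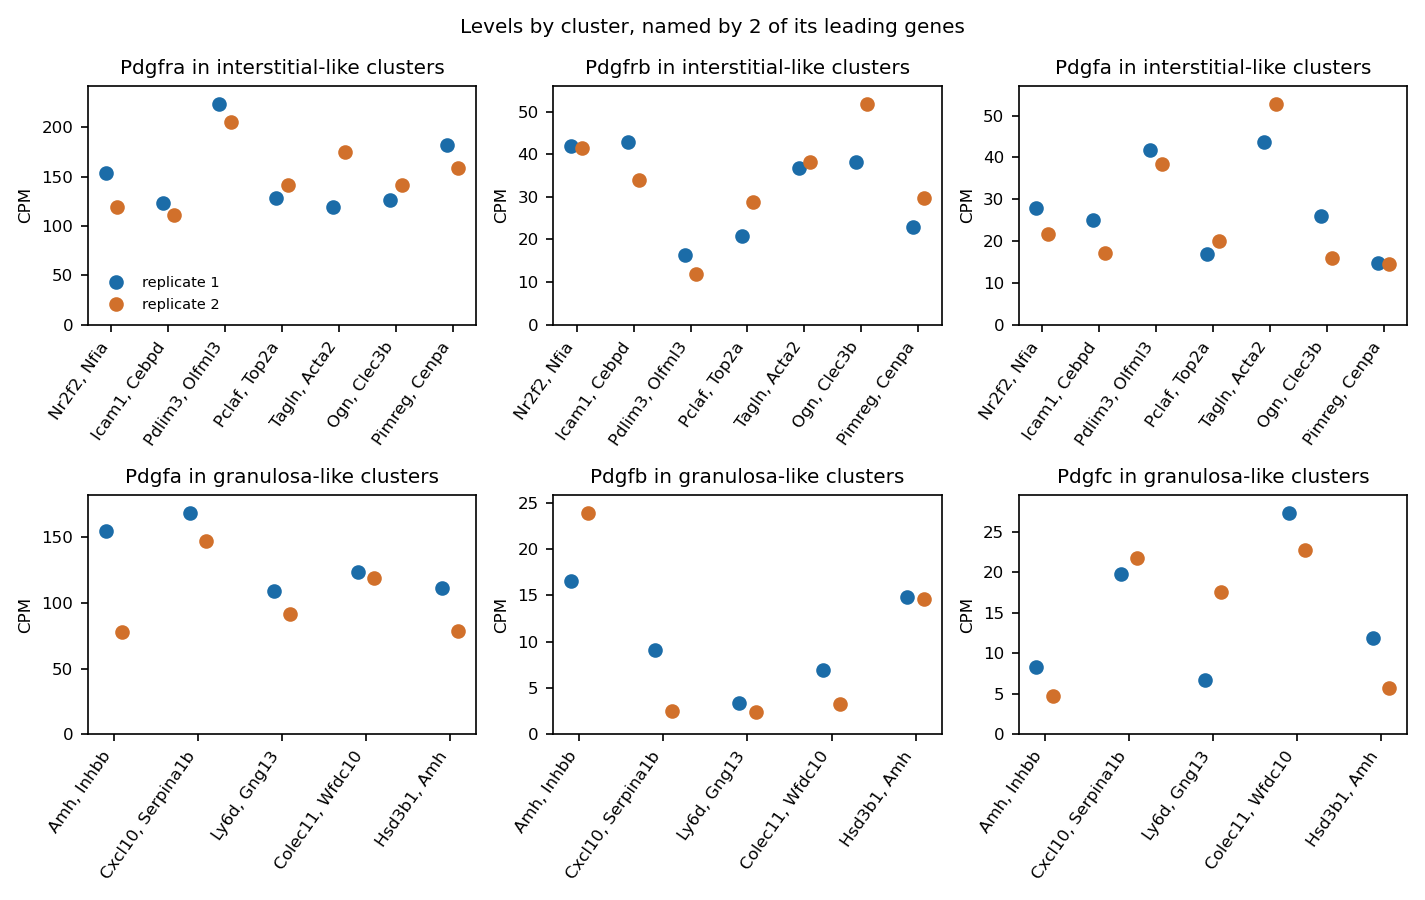
Levels (y axis, CPM) of Pdgfra, Pdgfrb and Pdgfa in 7 interstitial-like clusters (top) and of Pdgfa, Pdgfb and Pdgfc in the 5 granulosa-like clusters (bottom), with 1 point per library and clusters named by leading genes (x axis). The cluster led by Pdlim3 had the highest Pdgfra (224 and 206) and the lowest Pdgfrb (16.3 and 12.01).

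A list of 47 other genes of the pathway was tested in the same way, and 46 had enough counts in each type. Over all types 63 of 322 combinations were enriched (19.6%) and 55 depleted (17.1%), against 14.1% and 19.6% over all genes. In the rest of this paragraph, percentages in brackets are shares of all genes tested in the type, not of the list. In granulosa-like cells 12 genes of the list were enriched (16.8% of all genes tested) and 6 depleted (24.7%). In interstitial-like cells the counts were 12 (17.2%) and 5 (27.2%), in endothelial-like cells 14 (9.63%) and 6 (14.9%), and in immune-like cells 10 (10.2%) and 6 (11.7%). Perivascular-like cells had 7 enriched (4.7%) and 1 depleted (5.72%), mesothelial-like cells 5 (10.8%) and 7 (20.1%), and germ-like cells 3 (28.7%) and 24 (32.0%). The median log2 fold change of the list in germ-like cells was -1.04 against -0.05 over all genes tested there. In the other 6 types the median of the list was above that of all genes. It was 0.51 against -0.05 in granulosa-like, 0.27 against -0.12 in interstitial-like, 0.48 against -0.37 in endothelial-like, 0.22 against -0.51 in perivascular-like, 0.07 against -0.14 in mesothelial-like and 0.10 against -0.54 in immune-like cells. Germ-like cells, with 16422755 and 26373935 UMIs, are part of the reference of these 6 types, so the medians are not separate results. The part of the germ-like depletion in them was not tested. The median of all genes also depended on the filter for low counts, and was -1.59 in immune-like cells without it.

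Among genes of ligand processing, Pcsk6, a proprotein convertase, was at 347 and 396 CPM in granulosa-like cells and enriched there (log2 fold change 3.80, SE 0.29, edgeR adjusted p = 2.40e-04). It was depleted in interstitial-like, perivascular-like, endothelial-like and immune-like cells. Plau, the urokinase gene, was enriched in immune-like cells (20.9 and 4.76 CPM from 8 UMIs, log2 fold change 3.31) and depleted in germ-like cells (0 and 0.08 CPM). Among partners outside the cell, Nrp1, which encodes the co-receptor neuropilin-1, was enriched in perivascular-like cells at 261 and 162 CPM (log2 fold change 4.21), in endothelial-like cells at 195 and 130 CPM (4.17) and in immune-like cells at 97.4 and 97.6 CPM (3.36). Sparc, a matrix protein that binds PDGF-B, was enriched in interstitial-like cells at 3396 and 3403 CPM (2.43) and depleted in immune-like cells (-2.44), and Lrp1 was enriched in interstitial-like cells at 123 and 124 CPM (2.12). S1pr1, a sphingosine 1-phosphate receptor, was enriched in granulosa-like (3.05) and endothelial-like cells (2.96) and depleted in interstitial-like cells (-3.16). Itgav, the integrin alpha-v subunit, was enriched in granulosa-like cells (2.62), its partner Itgb3 depleted in mesothelial-like cells (-3.21), and Thbs1 depleted in endothelial-like (-4.83), immune-like (-2.49) and mesothelial-like cells (-1.73).

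Of the 23 adaptors and effectors, 2 were enriched (28.7% of all genes tested) and 6 depleted (32.0%) in germ-like cells, and those enriched were Stat3 (228 and 201 CPM, log2 fold change 1.69) and Map2k1 (87.4 and 89.7 CPM, 1.44). In mesothelial-like cells Gab1 (1.77), Src (1.66) and Stat5b (1.37) were enriched. Of the 11 negative regulators, 9 were depleted in germ-like cells, led by Spry4 (-5.87) and Socs3 (-5.74), while Ptprj, a phosphatase gene, was the only one enriched there (41.0 and 26.3 CPM, 2.62). Spry4 and Spry1 encode Sprouty proteins, feedback inhibitors of receptor tyrosine kinase signalling, and both were enriched in perivascular-like cells, where Spry4 stood at 73.5 and 58.0 CPM (log2 fold change 4.35, edgeR adjusted p = 0.00118) and Spry1 at 245 and 253 CPM (4.03, adjusted p = 6.74e-05). Spry1 was also enriched in endothelial-like cells (115 and 137 CPM, 3.20) and depleted in granulosa-like (-2.38) and mesothelial-like cells (-1.56). In interstitial-like cells Socs3 reached 485 and 579 CPM (3.41, adjusted p = 2.65e-05). Sla was enriched in immune-like cells (66.1 and 66.7 CPM from 47 UMIs, 10.42), with 6 UMIs in all other named cells together. It was called depleted in granulosa-like and interstitial-like cells, with 1 UMI in each type, against a reference that includes the immune-like cells. Ptprj was depleted in granulosa-like (-2.95) and endothelial-like cells (-4.25).

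**Figure D5:**
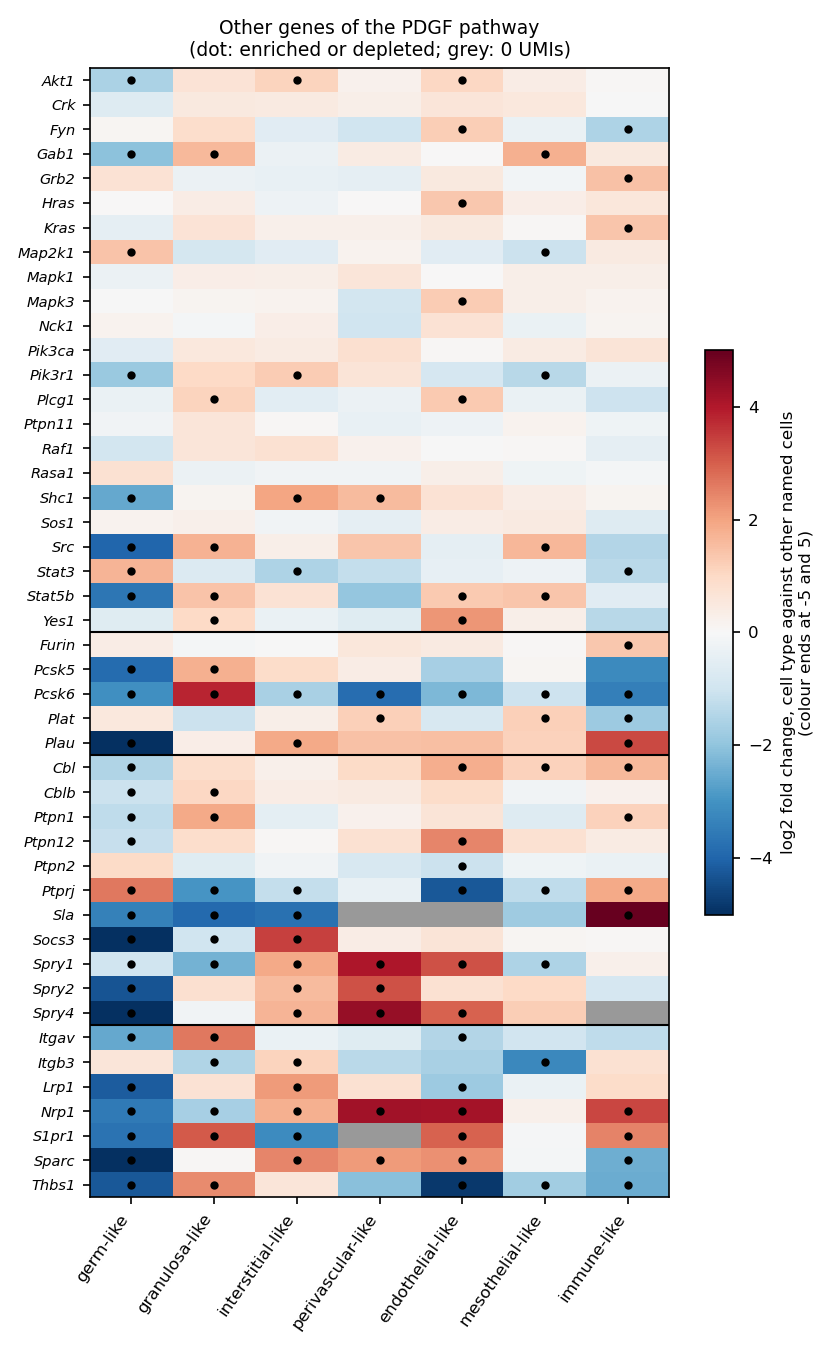
Log2 fold change of 46 other PDGF pathway genes (y axis) in each of the 7 cell types against all other named cells (x axis, colour scale ending at -5 and 5), grouped from top to bottom into adaptors and effectors, ligand processing, negative regulators and partners outside the cell. Black dots mark enriched or depleted genes and grey fields 0 UMIs. Germ-like cells carry 24 depleted genes of 46 tested (52.2%), against 32.0% of all genes tested there.

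The genes whose levels followed each PDGF gene most closely over the 14 sums are given by Pearson's r of log2(CPM + 1) among 14279 genes, as a description, since the sums share libraries and cell types. Pdgfrb was followed by Notch3 (r = 0.97), Des (0.97) and Rasgrp2 (0.96). Notch3, a mural cell receptor that is also on the perivascular marker list, was at 270 and 174 CPM in perivascular-like cells and at most 20.4 CPM elsewhere. Pdgfra was followed by Creb3l1 (0.93), Prss35 (0.93) and Cdh11 (0.92), and Prss35 was at 354 and 362 CPM in interstitial-like cells. Pdgfa was followed by Paip1 (0.93), Fkbp4 (0.91) and Nrtn (0.91), the last of which encodes neurturin and was at 31.1 and 29.0 CPM in mesothelial-like and at 41.8 and 33.5 CPM in granulosa-like cells. Pdgfc was followed by Ces2g (0.98), Lrrn1 (0.97) and Fgfr2 (0.97), Pdgfd by Kif3c (0.96), Mkrn3 (0.96) and Sufu (0.95), and Pdgfb, least closely, by Ttc7b (0.89), Pigq (0.88) and Map3k11 (0.84). Kif3c and Mkrn3 were themselves sparse, at no more than 6.55 CPM in any sum. Ces2g, Lrrn1, Fgfr2, Kif3c and Mkrn3 were at 0 CPM in all perivascular-like and immune-like sums, as were Pdgfc and Pdgfd. These sums hold few UMIs, and the part of the shared zeros in r was not tested.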

How the data were processed

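Single-cell RNA-seq of whole ovaries at postnatal day 2 gave 2 libraries of the Chromium 3′ system, labelled as biological replicates 1 and 2. The labels name version 2 of the reagent kit and the methods version 3, and which of them was used cannot be told from the counts. The authors deposited UMI counts per gene and cell, made with Cell Ranger 3.0.2 on GRCm38 per the labels' processing notes, limited to called cells and without normalization. The filters, clustering and test of the study are described in a note not used here and were set anew. The members, gene lists and tests were chosen with earlier results of these data known.

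The cell filter required 500 genes and no more than 10% of counts from mitochondrial genes (scanpy 1.11.5). Doublets were scored with Scrublet, and replicate 1's threshold (0.225) served for both, which removed 96 and 93 cells, because replicate 2's own threshold (0.521) marked 2 cells. Leiden clustering at resolution 1 used 30 principal components, 15 neighbours and 1991 variable genes without the PDGF and pathway genes, and gave 23 clusters. A cluster was named from the marker list with the largest share of its markers detected, at least 3 of them. A marker was detected at 2 times the geometric mean across clusters and in at least 10% of cells. Clusters whose 10 leading genes held more markers of another list stayed unnamed. So did clusters with few UMIs per cell whose leading genes held no marker of their own list. Of the interstitial-like clusters, 1 is not reported on its own here. Cells gated one by one on the gate markers (Ddx4, Dazl and Ooep for germ, Foxl2, Fst and Wnt6 for granulosa, Col1a2 and Dcn for interstitial, Rgs5 for perivascular, Cdh5 for endothelial, Upk3b for mesothelial, Ptprc and Tyrobp for immune cells) were an alternative, because many cells passed several gates. A cell passing both the interstitial and the perivascular gate was taken as passing the perivascular gate only. Of 6611 cells then counted as passing exactly 1 gate, 94.1% had the same name by cluster. Of the 186 and 294 mesothelial-like cells, however, only 23 and 35 passed the mesothelial gate alone. The granulosa gate alone was passed by 32 and 45 of them, and several gates by 121 and 188. Wnt6 was at 407 and 394 CPM in mesothelial-like and at 395 and 385 CPM in granulosa-like cells, whereas Foxl2 and Fst were lower in mesothelial-like cells.

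UMIs were summed per library and type and tested by glmQLFit and glmQLFTest of edgeR 4.0.16 (R 4.3.3) after filterByExpr and TMM scaling. CPM are UMIs per 1000000 summed UMIs of a type. On counts simulated with 4-fold changes, the test recovered 93.5% to 96.0% of changed genes in germ-like, granulosa-like and interstitial-like cells. The rate was 80.5% in mesothelial-like, 68.0% in endothelial-like, 49.5% in immune-like and 39.5% in perivascular-like cells. The simulated spread was a single fixed value for all genes and was not estimated from these data. These rates thus do not give the recovery at the spread of these libraries. Thinning was 1 random draw per cell, and 94 cells under 2000 UMIs were left out. Sums with the same replicate number come from the same pups, so the library pairs them. The differences between libraries correlated between types by 0.02 to 0.30 (8 of 21 pairs of types over 0.1), and the library entered as a block in an alternative fit. Named beside the 6 members were, of the pathway list, the 3 genes per type and direction with the largest log2 fold change among those called, and the 3 genes most correlated with each member. Other alternatives changed the reference, the test (against a 2-fold change, or DESeq2 1.42.0), the scaling, the filters, the clustering, the naming of cells, the depth and the libraries used.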

Additional observations from a re-analysis of the deposited data

Results flagged for a closer look

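Cells left without a type also held UMIs of PDGF genes, above the limit of 3 counts, and are outside the comparisons. A cluster of 28 and 225 cells with germ markers and few UMIs (medians of 2769 and 2463 per cell) stayed unnamed because haemoglobin genes outnumbered germ markers among its leading genes. It held 71 UMIs of Pdgfa, 13 of Pdgfb, 4 of Pdgfd and 6 of Pdgfra. The Pdgfa level there was 25.3 CPM in replicate 1 and 54.5 CPM in replicate 2, against 50.2 and 55.7 CPM in germ-like cells. The other unnamed clusters, 12 and 137 cells, held 8 UMIs of Pdgfa, 4 of Pdgfc and 11 of Pdgfra.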

How the results depend on the processing

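The 8 enriched combinations stayed enriched in each of 14 tested alternatives, except that Pdgfrb in interstitial-like cells fell under 2-fold on thinning to 2000 UMIs and Pdgfc in mesothelial-like cells was lost when a 2-fold change itself was tested. Thinning also added Pdgfb in granulosa-like cells to the enriched calls. DESeq2 and the fit without a filter on low counts each added Pdgfrb in endothelial-like cells. With the other types weighted equally, 16 combinations were enriched, among them the 8, and 7 depleted in place of 14, and Pdgfd in germ-like cells turned to 0.97. Pathway genes gave 63 enriched (19.6%) and 55 depleted (17.1%) of 322 combinations, against 14.1% and 19.6% over all genes. Enriched ones numbered 30 with thinned cells and 38 in the 2-fold test, and depleted ones 35 with equal weights and 33 in the 2-fold test. Over all genes, these same calls were also fewer in each type under these settings. In granulosa-like cells, 2669 of 15852 genes were enriched in the main fit and 1330 of 12076 with thinned cells. Depleted genes there were 3915 of 15852 in the main fit and 752 of 14280 with equal weights. The falls are thus not particular to the PDGF and pathway genes. Pairs of types that differed went from 64 to 38 with thinned cells, and the share over all genes at that depth is not given here. With 1 library left out there is no test, and by fold alone 8 to 10 combinations were enriched and 20 to 21 depleted, 67 to 79 and 64 to 74 for the pathway genes, and 95 to 101 pairs differed. The library as a block, which pairs the sums, gave 10 enriched combinations, with Pdgfb in germ-like and Pdgfrb in endothelial-like cells added, changed no other enriched call, added Pdgfra in immune-like cells to the depleted calls and lost Pdgfc there. Scaling by library totals shifted the median log2 fold change of all genes by -0.34 in immune-like to -0.02 in germ-like cells and kept the 8 calls.

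At 4000 UMIs per cell, the mean share with Pdgfa in granulosa-like cells was 35.9% (19.5% at 2000), with Pdgfc there 5.97% (3.69%), with Pdgfd in interstitial-like cells 5.46% (2.93%), with Pdgfra there 38.8% (22.8%), with Pdgfrb in perivascular-like cells 81.9% (69.5%), and with Pdgfrb among Pdgfra cells of the interstitial-like type 11.8% (6.69%). Counting the germ-marker cluster of few UMIs as germ-like and leaving out endothelial-like cells with Rgs5, both chosen after seeing the data, kept the 8 enriched calls. Depth limits the statements for perivascular-like, endothelial-like and immune-like cells, in which a PDGF gene not called is not shown to be absent.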
